A study of Mus musculus with 4 samples.

Results

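The genes described here are 9 mouse genes of fatty acid handling: the fatty acid binding protein genes Fabp1, Fabp2, Fabp3, Fabp4, Fabp5 and Fabp7, and Plin2, Angptl4 and Pdk4, which are commonly used as readouts of the peroxisome proliferator-activated receptors (PPARs). They were chosen by name after Fabp1 had shown the 2nd highest ratio of all genes in these arrays, to ask whether the other genes of a PPAR response moved with it. All array probes annotated with one of these gene names were taken, which gave 10 probes for 9 genes among 39429 gene probes, and all 10 passed the filter on dim probes. The tests below ran over the 21501 genes with a probe that passed it. Since the ratio of Fabp1 led to the choice, its values are given as a description without a test.

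Fatty acid binding proteins are small cytosolic proteins that carry long-chain fatty acids through the cell, and each has its own tissues. PPARs are nuclear receptors that fatty acids activate. Paired with a retinoid X receptor (RXR), they bind direct repeats of a short motif near genes of fatty acid uptake, oxidation and storage, several of the fatty acid binding protein genes among them. In the urothelium, the epithelium that lines the ureter and bladder, PPARG is known as a regulator of differentiation.

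RNA came from whole ureters of NMRI mouse embryos at stage E15.5 of embryonic development. The cKO embryos were Pax2-cre/+; Trp63(dN-flox/dN-flox), in which cre under Pax2 control recombines both floxed alleles of Trp63, and so targets ΔNp63, the p63 form of basal epithelial cells. The control embryos were Trp63(dN-flox/?), so that controls also carried at least 1 floxed allele, and no cre is listed for them. On each of 4 arrays, RNA of cKO embryos was set against RNA of sex-matched control embryos, female in replicates 1 and 2 and male in replicates 3 and 4. The labels list Pax2-cre for cKO embryos alone, and what the transgene itself may do and what the loss of ΔNp63 does cannot be told apart. The labels do not say whether an RNA came from 1 embryo or several, so p-values measure the spread between these RNAs. The whole ureter holds epithelium, smooth muscle, connective tissue, vessels and nerves, and a difference in the number of cells of a type cannot be told apart from a difference in RNA per cell.

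The probe that carries the Fabp1 result lies on mouse chromosome 6, at chr6:71154906-71154965 on the plus strand of build mm9, per the file headers. Its 60 bases are shown because every Fabp1 value rests on this single probe. Capitals mark an open reading frame of 13 codons and a stop codon, so that the probe reaches from the end of the coding sequence 17 bases past the stop.
Fabp1 probe: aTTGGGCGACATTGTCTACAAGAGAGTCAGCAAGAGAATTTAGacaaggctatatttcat
The longest stretch that this probe shared with a probe of any other gene on the array was 12 bases. Fabp3 was read by 2 probes that are offset by 9 bases on the plus strand of chromosome 4, between 129992643 and 129992711 (mm9), and share 51 bases. They are thus nearly the same measurement and not independent evidence. Of the stretch they share, 30 bases are shown, with the polyadenylation signal in capitals, which places both probes at the 3′ end of the transcript.
Fabp3 shared stretch: aaagggtgctccaaggtcAATAAAgcagaa
The probes of Fabp2, Fabp4, Fabp7, Plin2, Angptl4 and Pdk4 shared at most 14 bases with a probe of another gene. The Fabp5 probe shared 50 of its 60 bases with the probe of an unnamed array feature, NAP114472-1, so that the pair may read the same transcript.

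The upstream sequence of Fabp1 is shown because it bears the closest match to the PPAR motif among the 6 genes with a promoter sequence. The motif searched was AGGTCANAGGTCA, a direct repeat with 1 free base between the repeated units, on both strands of the 250 bases before the start site, in RefSeq promoters of build GRCm38.p6. A full-length promoter was found for 6 of the 9 genes, and not for Fabp4, Fabp5 or Angptl4. Fabp1 (chr6:71199629-71199878, plus strand) held a match with 1 mismatch over the 12 fixed bases, on the minus strand from base -67 to base -55 before the start site, here in capitals.
Fabp1 upstream: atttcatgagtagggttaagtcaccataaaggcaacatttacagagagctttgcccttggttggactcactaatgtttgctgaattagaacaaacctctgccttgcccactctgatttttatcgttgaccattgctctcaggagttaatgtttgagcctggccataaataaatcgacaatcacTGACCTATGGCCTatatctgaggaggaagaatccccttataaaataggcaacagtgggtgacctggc
A match that close or closer was present in 0.484% of 32851 mouse promoters. The best match upstream of Plin2 (chr4:86670060-86670309, minus strand), on the minus strand of the sequence as shown, from base -225 to base -213, had 2 mismatches, which 3.24% of promoters reached.
Plin2 upstream: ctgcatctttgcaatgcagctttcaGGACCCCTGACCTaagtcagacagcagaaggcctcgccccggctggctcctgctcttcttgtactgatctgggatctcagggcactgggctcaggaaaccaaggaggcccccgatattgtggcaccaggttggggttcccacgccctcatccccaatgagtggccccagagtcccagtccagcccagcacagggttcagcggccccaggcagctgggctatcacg
Fabp2 and Fabp7 came within 3 mismatches, as did 21.3% of promoters, and Fabp3 and Pdk4 within 4, as did 74.5%. In the array ratios described below, Fabp1 and Fabp3 were higher in cKO ureters and Plin2 was not. A match of letters is not a binding site, and windows farther from the start sites were not analysed here.

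Trp63, the targeted gene, was read by 4 probes. With the brightest, which stands for the gene, the 4 arrays gave -1.39, -1.18, -1.30 and -1.62 as log2 of cKO over control, lower in cKO RNA on every array (limma adjusted p = 0.00323). The other Trp63 probes gave means of -1.26, -0.81 and -0.02, with adjusted p-values of 0.00622, 0.0545 and 1.00 when every probe was tested by itself, and the last was lower on 2 arrays and higher on 2. Whether any of them lies in the deleted part is not known here. Over the whole table, 266 of 21501 genes changed at adjusted p under 0.05, or 1.24%, of which 113 were higher (0.526%) and 153 lower (0.712%) in cKO ureters. The levels of the 4 cKO RNAs and the 4 control RNAs did not overlap for 6.38% of genes, and 15.3% of genes had a ratio of the same sign on all 4 arrays. The control RNA of replicate 2 stood apart in marker genes of kidney and liver, with values given beside the results they touch.

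Of the 9 genes, Fabp1 and Fabp3 were higher in cKO ureters, Fabp5 was slightly higher on every array without passing the test, and the other 6 had mean log2 ratios between -0.24 and 0.09. Fabp3 was the only one of the 8 genes beside Fabp1 that passed the test, 1 higher and 0 lower, where 0.526% of all genes were called higher and 0.712% lower. The median log2 ratio of those 8 genes was -0.02, against 0.00 for all genes tested. Among the 8 genes beside Fabp1, the levels of cKO and control RNAs did not overlap for 2, Fabp3 and Fabp5, both higher in cKO, where 6.38% of all genes did not overlap. The ratio had the same sign on all 4 arrays for 3 of the 8, Fabp3 and Fabp5, which were higher, and Fabp7, which was lower, where 15.3% of all genes had it.

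**Figure D1:**
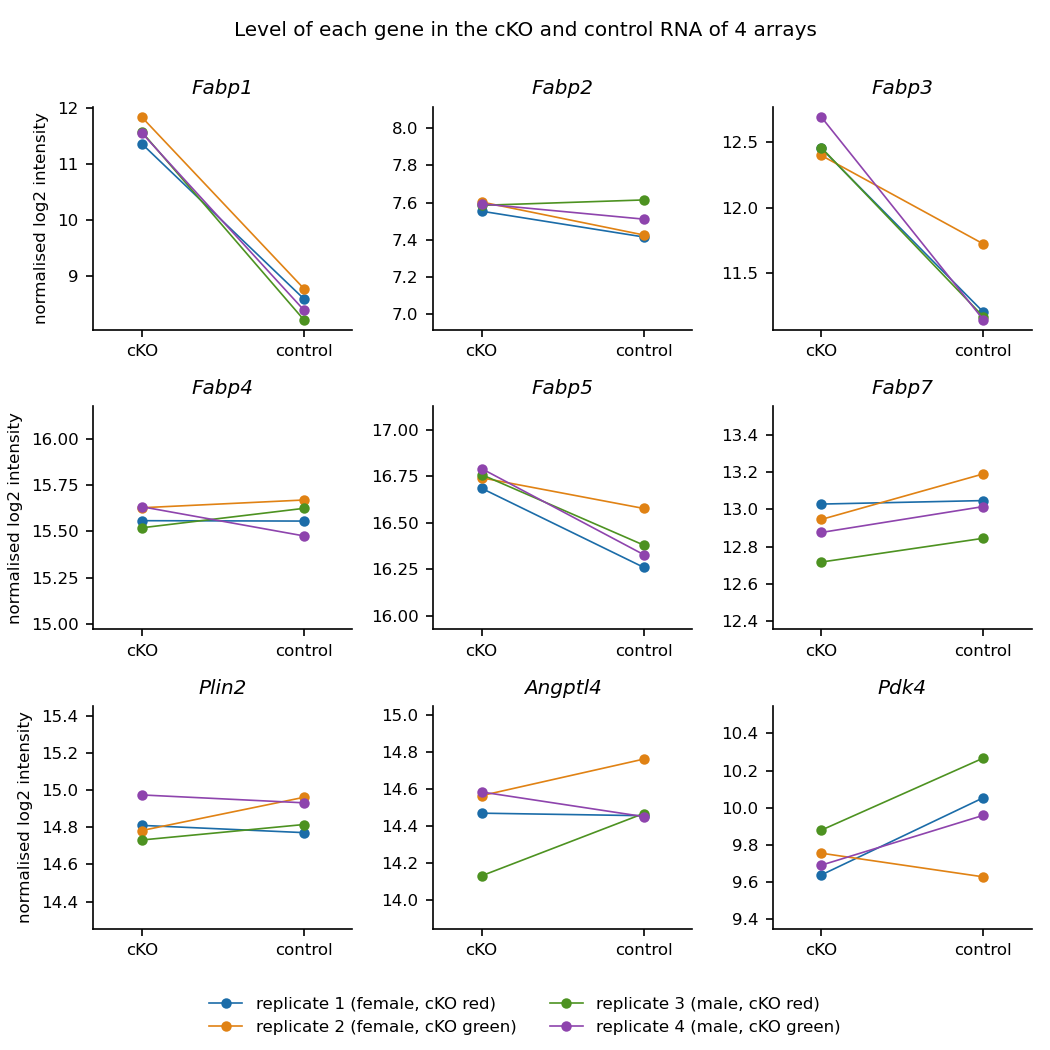
Level of each of the 9 genes (normalised log2 intensity, y axis, its own range in each panel) in the cKO RNA (left) and the control RNA (right) of each array, with a line joining the RNAs of 1 array and a colour for each replicate. The cKO and control points are fully separated for Fabp1, Fabp3 and Fabp5, and they overlap for the other 6 genes.

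Fabp1, the liver form, is also made in the absorptive cells of the small intestine. Its level was 11.35, 11.83, 11.57 and 11.55 in the cKO RNAs of replicates 1 to 4, against 8.59, 8.77, 8.21 and 8.39 in the control RNAs (normalised log2 intensity). The lowest cKO level was above the highest control level by a wide margin, in both sexes and in both dyes. Before normalisation, the background-subtracted signal ran from 2510 to 3457 in cKO RNAs and from 202 to 400 in control RNAs. The probe was well above background in both RNAs on every array, so that Fabp1 was measured in control ureters too. The log2 ratios were 2.77, 3.06, 3.36 and 3.16, a mean of 3.09 ± 0.24 (SD, n = 4), or 8.49-fold. The SD of the log2 ratio among the 4 spots of the probe on 1 array was 0.03 to 0.09, below the spread between arrays.

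Fabp2 encodes the intestinal form, which enterocytes make together with Fabp1. Its level was 7.55, 7.60, 7.58 and 7.59 in the cKO RNAs, against 7.41, 7.43, 7.61 and 7.51 in the control RNAs. The levels overlapped, and the signal was low, at 105 to 139 in cKO and 91.5 to 122 in control RNAs after background subtraction. The log2 ratio was 0.09 ± 0.09 (SD, n = 4), with a 95% interval of -0.09 to 0.28 (limma adjusted p = 1.00).

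Fabp3 encodes the heart form, which heart and skeletal muscle make in large amounts. With the brighter of its probes, its level was 12.45, 12.40, 12.46 and 12.69 in the cKO RNAs, against 11.20, 11.72, 11.17 and 11.14 in the control RNAs. The groups did not overlap, and the control RNA of replicate 2 was higher than the other control RNAs. The log2 ratios were 1.25, 0.68, 1.29 and 1.55, a mean of 1.19 ± 0.37 (SD, n = 4), or 2.28-fold, with a 95% interval of 0.84 to 1.54. Fabp3 passed the test (limma adjusted p = 0.0221) and ranked 21st from the highest ratio. The overlapping probe gave 1.20, 0.66, 1.29 and 1.50. Without replicate 2, the ratio of Fabp3 fitted with a dye term was 1.41. With no filter on dim probes, which raised the number of genes tested to 29987, its ratio was the same but its adjusted p was 0.142. Markers of striated muscle did not move with it: 0 of 11 tested markers were higher and 3 lower (Myl1, Ckm and Casq2), and the median of the list was -0.38. Of all genes, 0.526% were called higher and 0.712% lower.

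Fabp5, the epidermal form, is made by many epithelia. Its level was 16.69, 16.74, 16.76 and 16.79 in the cKO RNAs, against 16.26, 16.58, 16.38 and 16.33 in the control RNAs. All cKO levels were above all control levels, by a small margin over the control RNA of replicate 2. The log2 ratios were 0.43, 0.16, 0.38 and 0.46, a mean of 0.36 ± 0.13 (SD, n = 4), or 1.28-fold, and did not pass the test (limma adjusted p = 0.171). Without replicate 2, the ratio fitted with a dye term was 0.43 (limma adjusted p = 0.0110), with 1 residual degree of freedom per gene. NAP114472-1, whose probe shares most of its bases, gave 0.35 ± 0.13.

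Fabp4, the fat cell form, is also made by capillary endothelium and is a widely used target of PPARG. Its level was 15.56, 15.63, 15.52 and 15.63 in the cKO RNAs, against 15.56, 15.67, 15.62 and 15.48 in the control RNAs. The levels overlapped almost entirely, and the log2 ratio was 0.00 ± 0.11 (SD, n = 4), with a 95% interval of -0.18 to 0.19. Endothelial markers, of which 12 were tested, included 0 that changed and had a median of 0.11. Of 12 fat cell markers, 5 were tested and 0 changed. Of those not kept, Adipoq, Cfd, Cidec, Lep and Pck1 were well above background on no array. Plin1 was well above background on 3 arrays in each RNA and Retn on 2 in each.

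Fabp7, the brain form, marks radial glia and Schwann cell precursors. Its level was 13.03, 12.95, 12.72 and 12.88 in the cKO RNAs, against 13.05, 13.19, 12.84 and 13.02 in the control RNAs. It was lower in the cKO RNA of every array, at -0.13 ± 0.09 (SD, n = 4), but the levels overlapped and it did not pass the test (limma adjusted p = 0.866). Markers of Schwann cells and glia had a median of -0.10, with 0 of 11 changed.

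The 3 genes outside the family that are read as PPAR targets did not pass the test. Plin2 encodes a coat protein of lipid droplets. Its level was 14.81, 14.78, 14.73 and 14.97 in the cKO RNAs, against 14.77, 14.96, 14.81 and 14.93 in the control RNAs, and the log2 ratio was -0.05 ± 0.11 (SD, n = 4), with a 95% interval of -0.24 to 0.15. The upper bound of that interval is far below the ratios of Fabp1 and Fabp3.

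Angptl4 encodes a secreted inhibitor of lipoprotein lipase. Its level was 14.47, 14.56, 14.13 and 14.58 in the cKO RNAs, against 14.46, 14.76, 14.47 and 14.45 in the control RNAs. The levels overlapped, with the control RNA of replicate 2 above the others of its genotype. The log2 ratio was -0.10 ± 0.21 (SD, n = 4), with a 95% interval of -0.34 to 0.14.

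Pdk4 encodes a kinase that shuts down pyruvate dehydrogenase when fatty acids are burned. Its level was 9.64, 9.76, 9.88 and 9.69 in the cKO RNAs, against 10.05, 9.63, 10.27 and 9.96 in the control RNAs. It was lower in cKO RNA on 3 arrays and higher in replicate 2, with log2 ratios of -0.42, 0.13, -0.39 and -0.27. The mean of -0.24 ± 0.25 (SD, n = 4) did not pass the test (limma adjusted p = 0.552). Without replicate 2, the ratio fitted with a dye term was -0.34 (limma adjusted p = 0.0395). Pdk4 was then called in the direction opposite to Fabp1.

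**Figure D2:**
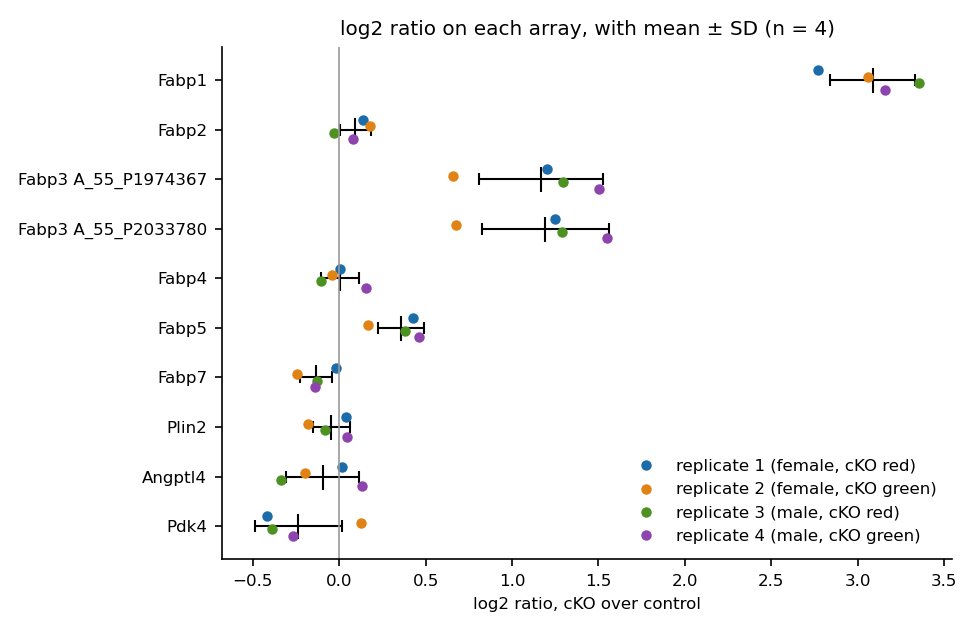
log2 ratio of cKO over control (x axis) for the 10 probes of the 9 genes (y axis), with a coloured point for each of 4 arrays and a black tick and bar for the mean ± SD. Fabp1 lies near 3 and both Fabp3 probes between 0.66 and 1.55, while the other genes lie within 0.5 of 0, and replicate 2 (orange) has the lowest ratio of Fabp3 and Fabp5 and the highest of Pdk4.

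By sex, Fabp1 gave 2.77 and 3.06 on female arrays and 3.36 and 3.16 on male arrays. Fabp3 gave 1.25 and 0.68 on female arrays and 1.29 and 1.55 on male arrays. Fabp2 gave 0.14 and 0.18 on female arrays and -0.03 and 0.08 on male arrays. By dye, Pdk4 gave -0.42 and -0.39 with cKO in red and 0.13 and -0.27 with cKO in green, and Fabp7 gave -0.02 and -0.13 with cKO in red and -0.25 and -0.14 with cKO in green. With 2 arrays on each side these are descriptions. The test of a difference between female and male arrays gave a limma adjusted p of 1.00 for each of the 8 genes beside Fabp1, with 1 residual degree of freedom per gene, and so did the dye effect, which does not show that sexes or dyes are alike.

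The receptors themselves differed little. Pparg had levels of 14.99, 14.91, 15.02 and 14.82 in the cKO RNAs, against 14.75, 14.53, 14.78 and 14.77 in the control RNAs. These levels did not overlap, but the log2 ratio of 0.22 ± 0.13 (SD, n = 4) did not pass the test (limma adjusted p = 0.538). Ppara gave -0.14 ± 0.15 and Ppard 0.01 ± 0.29. Ppargc1b, a coactivator gene, gave 0.26 ± 0.08 (limma adjusted p = 0.301). Of 17 genes of PPARs, RXRs and their cofactors, all were tested, 0 changed in either direction, and the median was -0.01. At an unadjusted p under 0.05, 2 of them were higher and 0 lower, while 8.04% of all genes passed that limit in either direction.

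A wider set of PPAR targets was read in the same fit. Lists of fatty acid uptake, mitochondrial oxidation, peroxisomal and microsomal oxidation, and lipid storage held 79 genes beside the 9, and 73 were tested. Of these, 2 were higher and 0 lower, or 2.74%, against 1.24% of all genes. One of the called genes, Cyp4a32, passed the filter on dim probes through its cKO RNA alone. With the filter required in both RNAs, 71 were tested and 1 was called (Gk), or 1.41%, against 1.21% of all genes. The median log2 ratio was 0.03, against 0.00 for all genes, and 45 of the 73 were above 0, or 61.6%, against 49.9% of all genes. At an unadjusted p under 0.05, 9 were higher, with Cyp4a32 among them, and 4 lower, while 8.04% of all genes passed that limit.

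Gk, which encodes glycerol kinase, rose in the uptake and activation list. Its level was 11.26, 11.24, 11.45 and 11.28 in the cKO RNAs, against 10.71, 10.55, 10.80 and 10.82 in the control RNAs, with no overlap. The log2 ratio was 0.59 ± 0.10 (SD, n = 4), or 1.50-fold (limma adjusted p = 0.0332). Gk was no longer called without replicate 3 or with no filter on dim probes. Acsl1, which activates long-chain fatty acids to their CoA esters, had levels that did not overlap either, at 13.11, 12.99, 13.33 and 12.95 in the cKO RNAs, against 12.68, 12.36, 12.69 and 12.75 in the control RNAs. Its ratio of 0.47 ± 0.20 did not pass the test (adjusted p = 0.123). The fatty acid translocase gene Cd36 gave 0.03 ± 0.03. Of 13 genes tested in this list, 1 was higher and 0 lower, and the median was 0.05. At an unadjusted p under 0.05, 2 were higher and 0 lower, while 8.04% of all genes passed that limit in either direction.

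None of the 19 tested genes of mitochondrial oxidation and ketone synthesis changed, and none had an unadjusted p under 0.05 (limma). Cpt1a, which controls the entry of fatty acids into mitochondria, gave 0.00 ± 0.15. The smallest p-values of the list belonged to Slc25a20, the carnitine carrier gene, at 0.18 ± 0.18 and Cpt2 at 0.14 ± 0.07. The median of the list was 0.03.

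In the peroxisomal and microsomal list, 1 of 19 tested genes was higher and 0 lower, with a median of 0.09 and 16 genes above 0. At an unadjusted p under 0.05, 6 of the 19 were higher and 0 lower (8.04% of all genes passed that limit in either direction). On all 4 arrays, 8 were higher, the most of the 4 lists, and 2 lower, where 15.3% of all genes had the same sign. Both counts of higher genes include Cyp4a32 and its paralogs Cyp4a12a, Cyp4a12b, Cyp4a31 and Cyp4a10, described below, so they are not counts of unrelated genes. The called gene was Cyp4a32, a cytochrome P450 of the family that hydroxylates fatty acids. Its probe was well above background on 4 arrays in cKO RNA and on none in control RNA. With control levels raised to the lowest signal above background where they lay below it, Cyp4a32 was 1.66-fold higher in cKO ureters. This is an estimate and not a strict bound. Since it was tested only because its cKO signal was high, no p is given for it. Its measured levels were 7.12, 7.24, 7.31 and 7.20 in the cKO RNAs, against 6.36, 6.58, 6.57 and 6.42 in the control RNAs. The mean ratio of 0.74 depended on how background was treated, at 2.45 with Agilent's processed signals and 1.07 with a normexp offset of 16. The paralogs Cyp4a12a, Cyp4a12b, Cyp4a31 and Cyp4a10 gave 0.44 ± 0.33, 0.25 ± 0.12, 0.23 ± 0.12 and 0.22 ± 0.15, none of which passed the test (adjusted p = 0.332 to 0.506). The probes of Cyp4a31 and Cyp4a10 share 34 bases, so these paralogs may not be read apart. Cyp4a14 was not kept.

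Of 22 tested genes of lipid storage and secretion, 0 passed the test in either direction, and the median was -0.02. Fads2, a desaturase gene, was lower on every array at -0.33 ± 0.08 (limma adjusted p = 0.162). Plin5, a lipid droplet coat gene, gave 0.32 ± 0.26, and Pltp, the phospholipid transfer protein gene, gave -0.28 ± 0.21. Apoa1 gave -0.52 ± 0.49, with its lowest ratio, -1.16, in replicate 2. At an unadjusted p under 0.05, 1 gene of the list was higher and 4 were lower of 22, while 8.04% of all genes passed that limit.

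The counts of called PPAR targets moved with single libraries. Without replicate 2, 5 were higher: Acsl1, Cyp4a12a, Cyp4a32, Gk and Plin5. Without replicate 4, 4 were higher (Acsl1, Acsl5, Cyp4a32 and Gk) and 5 lower (Apoa1, Fads2, Fitm1, Pltp and Slc27a2). Without replicate 3, Cyp4a32 was higher and Apoa1 lower. These calls include Cyp4a32, which the filter kept through its cKO RNA alone, and Fitm1, which it kept through its control RNA alone. The calls of Cyp4a32 and Fitm1 are not read as results. The share of all genes called was 4.37% without replicate 2 and 7.48% without replicate 4, against 1.32% without replicate 3.

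**Figure D3:**
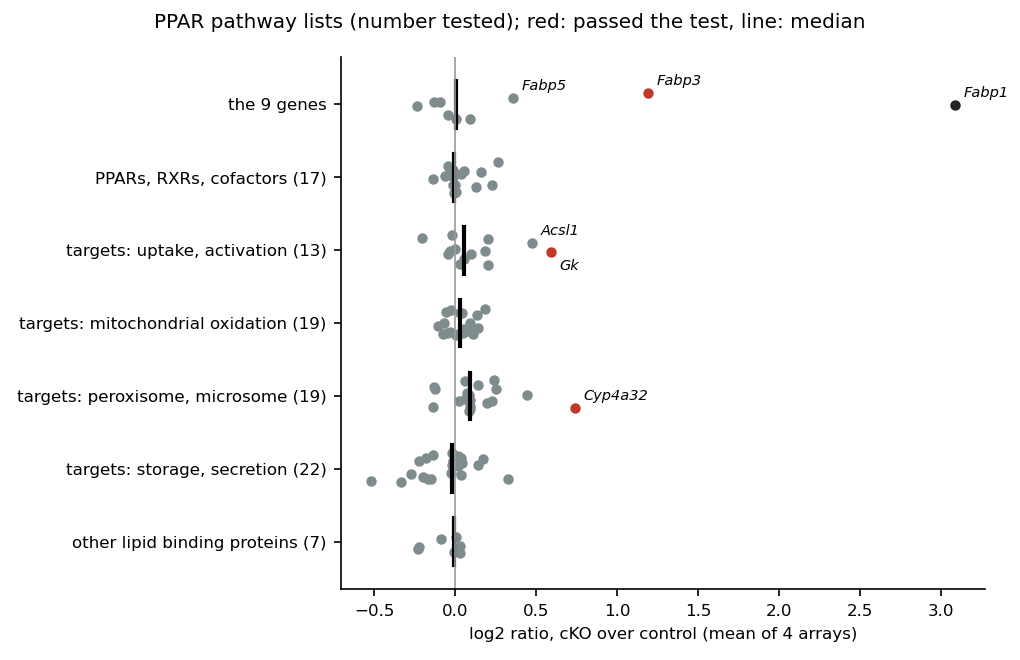
Mean log2 ratio of cKO over control (x axis) for the 9 genes and for the tested genes of each PPAR list (y axis, number tested in brackets), with 1 point per gene, red for genes that passed the test, black for Fabp1, which was not tested, and a vertical line for the median. The medians lie between -0.02 and 0.09, and Fabp1 and Fabp3 lie above all genes of the lists. Cyp4a32, shown in red, was kept by the filter through its cKO RNA alone.

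Other small lipid binding proteins of the same fold gave no gene that changed among 7 tested of 11. Fabp6, the ileal bile acid binding protein gene, was lower on every array at -0.23 ± 0.08. It was well above background on 1 array in cKO RNA and on 4 in control RNA. Since it passed the filter through its control RNA alone, no p is given for it. Rbp7, a retinol binding protein gene, gave -0.22 ± 0.24. Crabp2 and Crabp1 gave -0.09 and 0.03. Fabp9, Fabp12, Pmp2 and Rbp2 were not kept, since neither RNA was well above background on all 4 arrays.

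The genes next to Fabp1 and Fabp3 on their chromosomes did not move with them. Beside Fabp1, Thnsl2 gave -0.06 ± 0.15 and Smyd1 0.02 ± 0.20. Beside Fabp3, Serinc2 gave -0.10 ± 0.18 and Zcchc17 0.02 ± 0.09. None of these 4 neighbours changed (limma adjusted p = 1.00 for each).

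The 5 genes whose ratios were nearest to those of Fabp1, by the root mean square difference over 4 arrays, were Cubn, Hsd17b2, Krt20, Ihh and Ttr. The difference was 0.878 for Cubn, an endocytic receptor gene of kidney proximal tubule and small intestine, which gave 2.22 ± 0.28 (SD, n = 4). It was 1.11 for Hsd17b2, a steroid dehydrogenase gene (2.02 ± 0.28), and 1.19 for Krt20, a keratin gene of superficial urothelial cells and of gut epithelium (1.92 ± 0.19). Ihh, a hedgehog ligand gene, followed at 1.31 (1.79 ± 0.33) and Ttr, a thyroid hormone carrier gene, at 1.54 (1.59 ± 0.44). None of the 9 genes and none of the PPAR list genes was among them. The order of these distances is also the order of the mean ratios, and both are a description.

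Fabp1 is a marker of liver, small intestine and, in human kidney, proximal tubule, so markers of those organs were read beside it. Of all genes, 1.24% changed in either direction. Of 15 liver markers tested, Ttr was higher and 0 were lower, and the median was -0.34. Ahsg gave -0.89 ± 0.45, Afp -0.72 ± 0.53 and Serpina1a -0.78 ± 0.52, none of which passed the test. On all 4 arrays, 10 of the 15 were lower, among them Fga, which passed the filter through its control RNA alone. Of all genes, 15.3% had the same sign on all 4 arrays, in either direction. The list averaged 9.76 to 9.98 in cKO ureters and 9.85 to 10.61 in controls, with 10.61 in the control RNA of replicate 2. The median of the liver markers thus lay on the other side of 0 from Fabp1.

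Of 13 proximal tubule markers tested, Cubn was higher and 0 were lower, and the median was -0.14. Lrp2, the partner receptor of Cubn, gave 0.37 ± 0.32. The median of the list was 0.02, -0.63, -0.04 and 0.32 in replicates 1 to 4. Its mean level was 9.19 in the control RNA of replicate 2 and 8.30 to 8.47 in the other control RNAs, against 8.65 to 8.76 in the cKO RNAs. The part of this difference in the lower Fabp3 and Fabp5 ratios of replicate 2 was not tested. The ratio of Fabp1 was 3.06 in replicate 2, and its ratio fitted with a dye term was 3.11 without that replicate.

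Of 15 enterocyte markers, 8 were tested and 0 changed. Cdh17, an intestinal cadherin gene, gave 0.78 ± 0.34. Its probe was well above background on 4 arrays in cKO RNA and on 3 in control RNA. Since it passed the filter through its cKO RNA alone, no p is given for it. Vil1, the gene of the microvillus protein villin, gave 0.56 ± 0.28 (limma adjusted p = 0.0942). The list averaged 8.80 to 8.95 in cKO ureters and 8.61 to 8.75 in controls. These means include Cdh17, which the filter kept through its high cKO signal, so their separation is not read as a result. Lct, the lactase gene, was lower on every array at -0.23 ± 0.15. Of the markers not kept, Alpi, Apoa4 and Cdx2 were well above background on no array. Sis and Isx were so on 1 array in cKO and 2 in control RNA, and Slc5a1 and Rbp2 on 1 in control RNA alone. The part of these small shifts in the Fabp1 ratio was not tested.

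Markers of the labelled tissue were at high levels. Ureter smooth muscle and mesenchyme markers had a mean level of 14.1 to 14.3 in cKO ureters and 14.1 to 14.2 in controls, and 0 of 12 changed. Superficial urothelial markers averaged 14.8 to 15.1 in cKO ureters and 14.7 to 15.0 in controls. Krt20 and Krt18 were higher and Upk2 and Grhl3 lower among 10 tested, where 1.24% of all genes changed. Macrophage markers had a median of -0.20, with 0 of 12 changed.

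**Figure D4:**
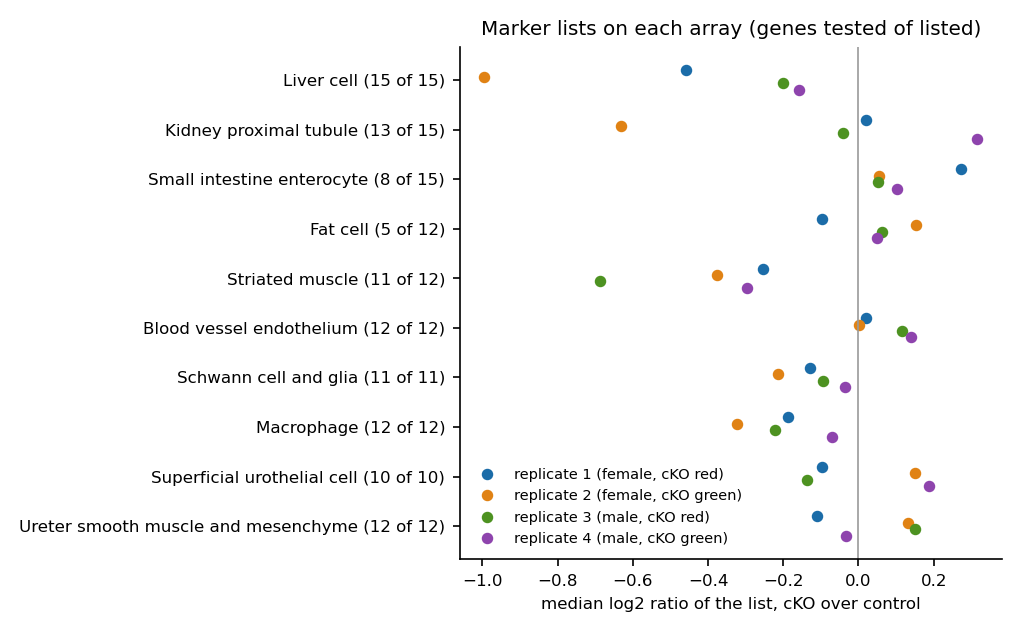
Median log2 ratio of cKO over control (x axis) of each marker list (y axis, genes tested of genes listed) on each of 4 arrays, shown as coloured points. Replicate 2 (orange) is lowest for the liver (-0.99) and proximal tubule (-0.63) lists, and striated muscle markers lie below 0 on every array.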

How the data were processed

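Spot intensity values of 4 two-colour Agilent arrays were deposited with the mean signal, the median background and flags (unit other) of every spot. Agilent Feature Extraction 10.7.3.1 is named as the tool, per the submitters' processing notes. Median signals per array were 382 to 416 in green and 519 to 617 in red, and the number of arrays limits the precision. The cKO RNA was red in replicates 1 and 3 and green in 2 and 4, per the labels. The deposited value table of log2 ratios gives cKO over control, with a slope of 0.924 to 0.941 on ratios of Agilent's processed signals. That slope was taken over nonzero values of probes well above background in both RNAs. The median of each column was 0. Exact zeros make up 32.2% to 32.6% of each column, for reasons not given in the sources used here. Genes with such a value were left out where that table was the alternative.

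Background was corrected with normexp (offset 50) and ratios by loess within arrays, with control spots at weight 0. Nonuniform spots were dropped and the 4 spots of a probe averaged. The filter on dim probes required that, in cKO or in control RNA, every array had a share of 0.5 or more of the probe's spots flagged well above background, and the brightest kept probe stood for a gene. The fit used limma (version 3.58.1, under R 4.3.3) with a dye term, and p-values adjusted by the Benjamini-Hochberg method over 21501 genes. Levels are channel values after loess and Aquantile normalisation. For a gene dim in 1 genotype, the lowest signal above background on an array replaced any lower level. The fold from this is an estimate, since an undetected probe can lie above that signal. The fit was tested on simulated data, where it recovered 33.2% of 1.5-fold, 64.8% of 2-fold and 93.6% of 4-fold changes. A gene that was not called may thus have changed by a small fold. All arrays lay on 1 slide. Coordinates of probes are mm9, per the file headers. Of 39429 probes, 30385 carried a symbol of the reference table (GRCm38.p6), 1435 were named by accession and 7609 kept the file's name. The 9 genes, the lists and the rule for named genes (every gene past the threshold and up to 4 with the smallest p in each list, and the 5 nearest to Fabp1, with others as examples) were chosen with earlier results of these data known. Alternatives in normalisation, offset, filter, probe, dye and sex terms, pairing and replicates are given at the end. A few list genes are not reported here.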

Additional observations from a re-analysis of the deposited data

Results flagged for a closer look

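In each of 30 groups of 4 values (the ratios, the cKO levels and the control levels of the 10 probes), the highest or lowest value was set against the others by Dixon's rule, and 3 groups held a value that stood apart. Chance marks about 1 in 20 such groups. All 3 values belong to the control RNA of replicate 2. Its Fabp3 level was 11.72 with the brighter probe and 11.29 with the overlapping probe, so these are 1 finding. Its Angptl4 level was 14.76. Each was the highest of its 4 control RNAs. The mean level of the proximal tubule markers (9.19) and of the liver markers (10.61) was highest in the same RNA, and whether these bear on Fabp3 or Angptl4 was not tested.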

How the results depend on the processing

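Over 14 alternatives, Fabp1 ranged from 2.94 to 3.39 (3.39 with Agilent's processed signals, 3.38 with the deposited table), Fabp3 from 0.97 to 1.41 (adjusted p up to 0.142, with no filter on dim probes) and Fabp5 from 0.28 to 0.43. Genes higher numbered 31 with no filter, 194 with no dye term, 233 with a sex term and 128 to 753 leaving out each replicate. Genes lower numbered 55, 266 and 310 under the same settings and 155 to 855 leaving out each replicate. PPAR list genes higher numbered 1 with no filter, with the filter on both RNAs and with the deposited table, 4 with a sex term, and 1 to 5 leaving out each replicate. PPAR list genes lower numbered 1 with a sex term and 0 to 5 leaving out each replicate. Genes higher among the 8 beside Fabp1 numbered 0 with no filter and 1 to 2 leaving out each replicate, and genes lower 0 to 1. The causes were not tested. Replicates left out leave 1 residual degree of freedom per gene, so those calls rest on the spread shared between genes. Control levels near background, as for Fabp2 and Cyp4a32, limit what a ratio can show.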
